A study of Homo sapiens with 6 samples.

Results

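Apolipoproteins are the proteins that carry and steer lipids in plasma, and liver cells make most of them. The messenger RNAs of 10 of their genes, chosen by name (APOA1, APOA2, APOA4, APOA5, APOB, APOC1, APOC3, APOE, APOH and APOM), were followed here among the 23368 genes of a table from HepG2 cells. All 10 were in the table and all 10 passed the filter on low counts, which kept 14598 genes. HepG2 is an established human liver cancer line. The cells of 3 libraries, called shCHROME a, b and c, had been transduced, by lentivirus made in HEK293T embryonic kidney cells, with a short hairpin RNA against all variants of CHROME, a long noncoding RNA. The cells of 3 further libraries, called EV a, b and c, carried a non-targeting hairpin in the same pLKO vector, so both groups had been through viral delivery. The comparison asks which transcripts differ when CHROME is knocked down. The level of CHROME is not analysed here, and how far it was lowered is therefore not measured beside any value. Whether the shCHROME cells carry a single hairpin is not stated. Nor is it stated that replicates are separate cultures, and the p-values may then reflect technical spread alone.

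A lipoprotein is a droplet of triglyceride and cholesterol ester held in a shell of phospholipid and apolipoproteins. APOB forms the backbone of the very-low-density and low-density particles, and APOA1 that of high-density particles, whereas the smaller exchangeable proteins move between particles and set how fast lipases and receptors act on them. Several of the genes lie side by side: APOA1, APOC3, APOA4 and APOA5 form a cluster on chromosome 11, and APOE and APOC1 lie in a cluster on chromosome 19. CHROME is described in the literature as a regulator of cholesterol homeostasis that binds microRNAs.

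Each library held between 29477352 and 33911426 recovered reads in shCHROME and between 29188213 and 35429420 in EV. The 10 genes together took 1.74% to 2.15% of the reads of a shCHROME library and 1.96% to 2.13% of an EV library. The markers fixed for hepatocytes were all present, and 6 of 10 were called lower in shCHROME, against 6.87% of all genes tested. The 10 markers summed to 726312 to 844336 normalized counts in shCHROME, against 944961 to 1004184 in EV. Of 8 macrophage markers, 3 passed the filter and none was called. CD163, MSR1 and MRC1 averaged 0 in shCHROME and under 1 normalized count in EV, and the sums ran from 354 to 465.2 in shCHROME and from 318.9 to 497.3 in EV. Of 10 packaging cell markers none was called, and NEFM, NEFL, TSPYL5 and HOXA9 were listed at 0. Of 10 enterocyte markers (small intestine also makes APOA1, APOA4, APOB and APOC3) 4 passed and 2 were called lower, VIL1 and ALPI. The sums of that list were 11126 to 12452 in shCHROME against 13015 to 14116 in EV, and the intestinal gene CDX1 was listed at 0. Nearly all of each sum was VIL1 (mean 6967 in shCHROME and 7833 in EV) and ANPEP (4740 and 5364). FABP2 averaged 149.2 in shCHROME and 153.9 in EV and was not called. LCT averaged 4.084 in shCHROME and 3.567 in EV, and SI, CDX2 and MUC2 were lower still. ALPI had 40 reads in shCHROME and 101 in EV. The call of VIL1 was lost in 12 of 18 alternatives (adjusted p 0.051 to 0.168), among them scaling to library totals (0.141), the replicate block (0.0989) and fits without 1 library, shCHROME replicate b excepted, and that of ALPI without shCHROME replicate a (0.0506), EV replicate a (0.06) or EV replicate b (0.0661). The part of these shifts in the results that follow was not tested.

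Among the 10 apolipoprotein genes, APOA4, APOA5, APOA1 and APOH passed an adjusted p of 0.05 and were lower in shCHROME, none was higher, and 6 were not called (limma on log2 of the normalized count plus 1, Benjamini-Hochberg over all genes tested). The called genes were 1.17-fold to 1.74-fold lower. Over all genes tested, 6.87% were called lower and 3.64% higher, 1003 and 532 genes, and with scaling to library totals 702 were lower and 936 higher. The estimate was negative for 9 of the 10, and for 6976 of the 14598 genes tested. That of APOB turned positive with scaling to library totals. The median log2 fold change of the 10 was -0.20, against 0.01 over all genes tested. In 5 of the 10 every shCHROME library lay below every EV library, which 15.0% of all genes tested did, and in 1, APOA2, every shCHROME library lay above, which 13.0% did. In the authors' deposited table, 3 of the 10 were lower at an adjusted p under 0.05 (APOA1, APOA4 and APOA5), against 6.02% of its genes. A bulk measurement cannot tell fewer cells that express a gene from less RNA per cell.

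**Figure D1:**
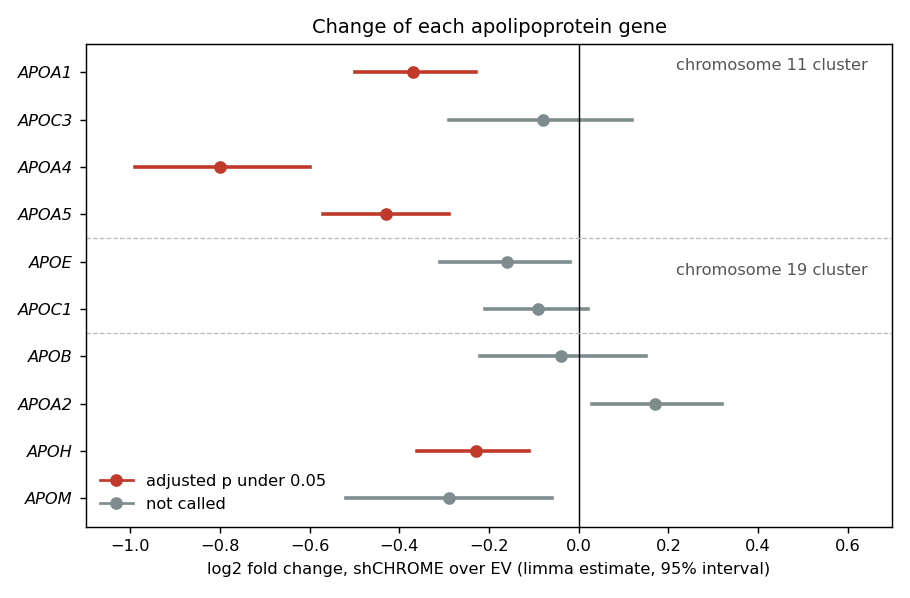
Log2 fold change of each apolipoprotein gene, shCHROME over EV (x axis), as the limma estimate with its 95% interval, with the genes of the chromosome 11 cluster at the top and those of the chromosome 19 cluster below them. The 4 called genes (red) have estimates from -0.80 to -0.23 and APOA2 alone lies to the right of 0 at 0.17; APOB, at -0.04 here, moves to 0.01 with scaling to library totals.

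Promoters of 7 of the 10 genes were matched by symbol in a RefSeq table on GRCh38.p14; APOA1, APOB and APOC3 were not. The 250 bases before the start are shown for the 3 called genes with a match, which lie on 2 chromosomes, and for APOE, which was not called. The table has 2 starts for APOA5 and 3 for APOE, and the most upstream start of each is the one shown. All are written 5′ to 3′ on the gene's own strand, the minus strand for the first 3 and the plus strand for APOE. Capitals mark matches, on either strand, to the TATA box TATAAA, the CCAAT box CCAAT, an HNF4 site CAAAGTCCA, the nuclear receptor half-site AGGTCA, the HNF1 half-site GTTAAT and the GC box GGGCGG. No matches overlap each other.
APOA4, chr11:116823305-116823554: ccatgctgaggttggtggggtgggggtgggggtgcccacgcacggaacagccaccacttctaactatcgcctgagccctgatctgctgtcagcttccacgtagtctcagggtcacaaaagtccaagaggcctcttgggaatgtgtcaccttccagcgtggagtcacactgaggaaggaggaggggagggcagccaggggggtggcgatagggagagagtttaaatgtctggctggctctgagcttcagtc
APOA5, chr11:116792421-116792670: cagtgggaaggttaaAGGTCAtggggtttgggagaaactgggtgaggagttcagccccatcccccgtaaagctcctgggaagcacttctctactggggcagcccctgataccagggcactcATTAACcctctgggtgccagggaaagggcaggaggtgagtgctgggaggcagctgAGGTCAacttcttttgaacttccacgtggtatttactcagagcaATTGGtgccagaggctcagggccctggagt
APOH, chr17:66229416-66229665: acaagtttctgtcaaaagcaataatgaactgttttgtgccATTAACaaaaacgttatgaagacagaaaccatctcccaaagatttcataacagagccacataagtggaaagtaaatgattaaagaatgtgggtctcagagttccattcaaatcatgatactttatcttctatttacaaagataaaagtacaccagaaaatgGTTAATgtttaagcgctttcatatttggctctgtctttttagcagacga
APOE, chr19:44905546-44905795: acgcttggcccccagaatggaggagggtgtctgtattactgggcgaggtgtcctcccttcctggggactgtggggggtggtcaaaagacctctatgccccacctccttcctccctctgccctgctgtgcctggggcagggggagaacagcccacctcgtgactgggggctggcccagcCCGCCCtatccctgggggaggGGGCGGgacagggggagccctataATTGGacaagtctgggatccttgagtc

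The APOA5 window held AGGTCA at -235 and -74, counted from the start. It also held ATTAAC, the HNF1 half-site read on the other strand, at -129, and ATTGG at -30. In the APOH window, GTTAAT stood at -49 and ATTAAC at -210. The APOE window held CCGCCC at -72, GGGCGG at -51 and ATTGG at -27, and the APOA4 window held none of these letter strings. At the other starts, APOA5 had AGGTCA at -156, and APOE had ATTGG at -202 before one start and no match before the other. Among 35093 promoters of the same length, AGGTCA was present in 12.1%, GTTAAT in 6.23%, CCAAT in 32%, GGGCGG in 42.6%, TATAAA in 10.7% and CAAAGTCCA in 0.325%, each on either strand. The windows also differ in base composition, with 33.2% G and C in APOH, 56.4% in APOA5, 59.2% in APOA4 and 64.8% in APOE, against a mean of 57.2% over all promoters. No single one of these motifs was found in the windows of all 3 called genes. These are letter matches and carry no measurement of binding.

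Of the genes for proteins of high-density particles, APOA1 and APOA4 were called lower, and APOA2 and APOM were not called. APOA1, which forms the shell of high-density particles and activates lecithin-cholesterol acyltransferase, had 60001, 70601 and 64964 normalized counts in shCHROME, against 83729, 85097 and 83253 in EV. Every shCHROME library lay below every EV library, and the EV libraries were close together while the shCHROME libraries spread over a range of about the size of their distance to EV. APOA1 averaged 65189 ± 5304 in shCHROME and 84027 ± 957 in EV (SD, n = 3 each), a 1.29-fold decrease (log2 fold change -0.37, SE 0.064, limma adjusted p 0.00105). The call was kept in 17 of 18 alternatives and lost with limma without an intensity trend (adjusted p 0.0655).

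APOA2, the second protein of high-density particles, went the other way in its estimate. It had 20703, 21799 and 21562 normalized counts in shCHROME, against 16661, 20639 and 19814 in EV. All shCHROME libraries were above all EV libraries, but EV replicate a stood well below the other two. Its log2 fold change of 0.17 (95% interval 0.03 to 0.32) was not called (limma adjusted p 0.125). With scaling to library totals it was called higher at 0.048, or without EV replicate b at 0.0497, whereas without EV replicate a the estimate was 0.08 (limma adjusted p 0.571).

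APOM binds sphingosine-1-phosphate on high-density particles. Its libraries held 1732, 1775 and 1568 normalized counts in shCHROME, against 1603, 2395 and 2302 in EV. EV replicate a lay among the shCHROME libraries and the other two EV libraries lay above all of them, so the groups overlapped. The log2 fold change was -0.29 (95% interval -0.52 to -0.06) and was not called (limma adjusted p 0.0994), or without EV replicate a it was -0.47 and was called (limma adjusted p 0.000853). APOM appears in 7 identical rows of the table, on chromosome 6 and its alternative haplotypes, so reads may have been split or lost among copies.

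APOB carries the triglyceride-rich particles out of the hepatocyte and serves as the ligand for their clearance from plasma. It was the fourth most abundant transcript of the table by normalized count and did not move beyond its spread, with 399111, 498462 and 471614 normalized counts in shCHROME, against 454711, 441275 and 503913 in EV. The groups overlapped fully: the lowest and the next-to-highest library were both shCHROME. Its mean was 456396 ± 51394 in shCHROME and 466633 ± 32977 in EV (SD, n = 3 each), and the 95% interval of the log2 fold change ran from -0.22 to 0.15 (limma adjusted p 0.859). The estimate of -0.04 changed sign without shCHROME replicate a (0.06), without EV replicate c (0.02) and with scaling to library totals (0.01).

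**Figure D2:**
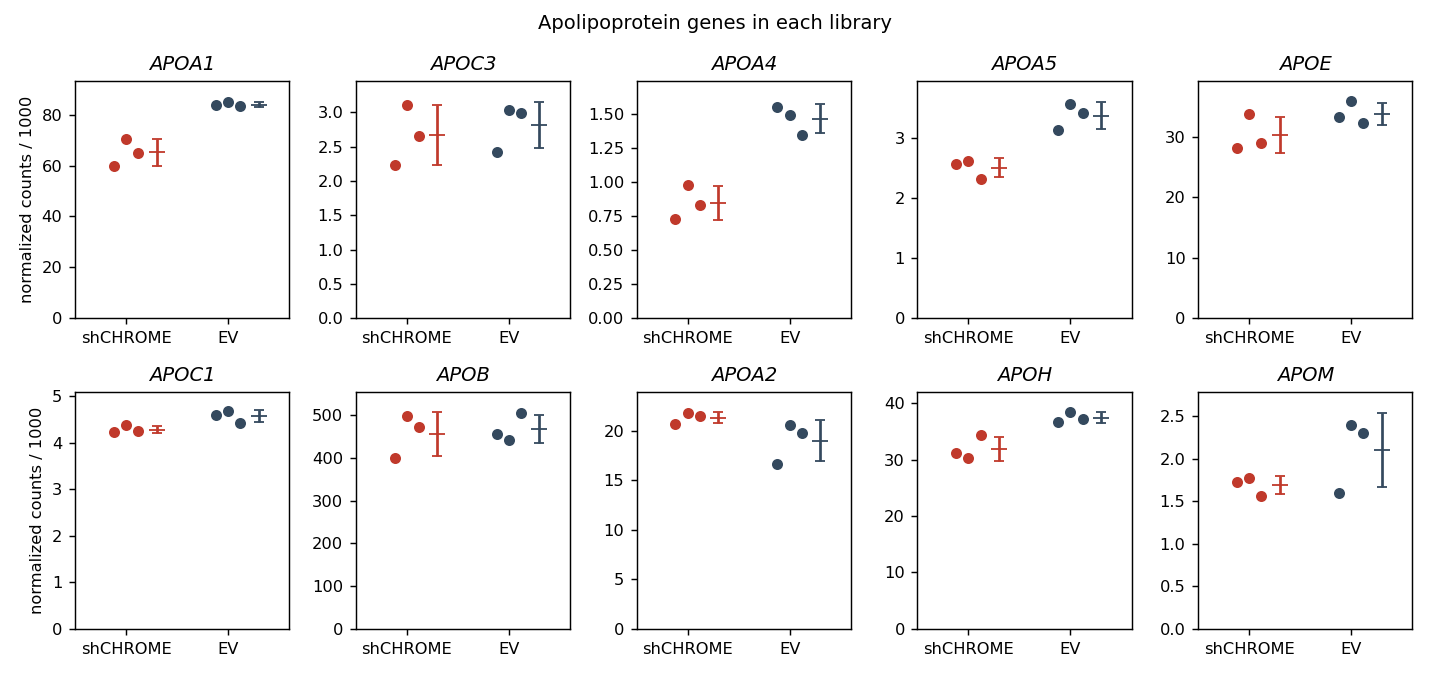
Normalized counts divided by 1000 (y axis, from 0) of the 10 apolipoprotein genes, with 1 point per library, shCHROME (red) left of EV (dark), and the group mean with its SD beside the points (n = 3 each). For APOA1, APOA4, APOA5, APOC1 and APOH every shCHROME point is below every EV point, for APOA2 every shCHROME point is above, and APOB, APOC3, APOE and APOM overlap.

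Of the genes that act on lipoprotein lipase, the enzyme that removes triglyceride from particles in capillaries, APOA5 was called lower, and APOC3 and APOC1 were not called; differences among them were not tested. APOA5 raises the activity of that enzyme, and people who lack it have high plasma triglyceride. It had 2569, 2612 and 2319 normalized counts in shCHROME, against 3127, 3565 and 3407 in EV, with no overlap between the groups. The mean was 2500 ± 158 in shCHROME and 3367 ± 222 in EV (SD, n = 3 each), a 1.35-fold decrease (log2 fold change -0.43, 95% interval -0.57 to -0.29, limma adjusted p 0.000424). This call was kept in 17 of 18 alternatives and lost with limma without an intensity trend (adjusted p 0.0555).

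APOC3 inhibits lipoprotein lipase and slows the uptake of remnant particles. It had 2237, 3110 and 2661 normalized counts in shCHROME, against 2426, 3032 and 2992 in EV. The shCHROME group held both the highest and the lowest library. Its log2 fold change of -0.08 (95% interval -0.29 to 0.12) was not called (limma adjusted p 0.667) and became 0.04 without shCHROME replicate a.

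APOC1, which inhibits cholesteryl ester transfer protein and lipoprotein lipase, had 4232, 4381 and 4247 normalized counts in shCHROME, against 4594, 4687 and 4436 in EV. The shCHROME libraries were all below the EV libraries, by little. The log2 fold change was -0.09 (95% interval -0.21 to 0.02, limma adjusted p 0.327). Its counts are uncertain where reads match the pseudogene APOC1P1, which lies in the same cluster.

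APOA4, a lipid-binding protein of chylomicrons and high-density particles that is made chiefly by the intestine, had the largest fold change of the 10. It had 729.5, 982.2 and 834.4 normalized counts in shCHROME, against 1556, 1496 and 1348 in EV. The highest shCHROME library was well under the lowest EV library. The mean was 848.7 ± 127 in shCHROME and 1467 ± 107 in EV (SD, n = 3 each), from 2516 reads in shCHROME and 4387 in EV over 3 libraries each. That is a 1.74-fold decrease (log2 fold change -0.80, SE 0.094, 95% interval -0.99 to -0.60, limma adjusted p 2.38e-05). The call was kept in all 18 alternatives, with an adjusted p of up to 0.0422 (limma without an intensity trend).

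APOE, a ligand for the uptake of remnant particles by the liver, had 28057, 33665 and 28936 normalized counts in shCHROME, against 33185, 35827 and 32251 in EV. Replicates a and c of shCHROME were the lowest of the 6 libraries, but shCHROME replicate b lay inside the EV range. The log2 fold change of -0.16 (95% interval -0.31 to -0.02) was not called (limma adjusted p 0.144). Without shCHROME replicate b it was -0.24 and called (limma adjusted p 0.0166).

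APOH, also known as beta-2-glycoprotein I, binds phospholipid and is the antigen of antiphospholipid antibodies. It had 31211, 30269 and 34278 normalized counts in shCHROME, against 36612, 38487 and 37232 in EV. No shCHROME library reached the lowest EV library. The mean was 31919 ± 2097 in shCHROME and 37444 ± 955 in EV (SD, n = 3 each), a 1.17-fold decrease (log2 fold change -0.23, SE 0.059, limma adjusted p 0.0164). The call was lost without EV replicate b (limma adjusted p 0.0628), without EV replicate c (0.052) and with limma without an intensity trend (0.138), and in the authors' deposited table its adjusted p was 0.0887.

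Per kilobase of the longest coding transcript, the order of the levels in EV was APOA1, APOA2, APOB, APOH, APOE, APOC1, APOC3, APOM, APOA5 and APOA4. APOA1 held 53129 ± 4323 normalized counts per kilobase in shCHROME and 68481 ± 780 in EV (SD, n = 3 each). APOB held 32320 ± 3640 in shCHROME and 33045 ± 2335 in EV on the same scale, since its transcript is 14121 bases long. At the other end APOA4 held 576 ± 86.2 in shCHROME and 996 ± 72.8 in EV. Between neighbours in the order, the ranges over a group's libraries overlapped for APOB and APOH and for APOM and APOA5 in both groups, for APOH and APOE in shCHROME, and for APOA2 and APOB in EV. Within each shCHROME library, APOB was still above APOH and APOM above APOA5. APOA2 stood at 40292 ± 1089 normalized counts per kilobase in shCHROME, above APOB in all 3 libraries, and at 35921 ± 3962 in EV, where the libraries overlapped with APOB.

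Summed, the 10 genes reached 550582, 667656 and 632983 normalized counts in shCHROME, against 638205, 636502 and 690949 in EV. The sums overlapped, and their log2 values differed by -0.09 (two-sided exact permutation test, p 0.4; the smallest p that 3 against 3 libraries allow is 0.1). APOB made up 73.9% of the sum in shCHROME and 71.2% in EV, and APOA1 10.6% in shCHROME and 12.8% in EV. Leaving APOB out, the sums were 151471, 169194 and 161369 in shCHROME, against 183494, 195227 and 187036 in EV, without overlap and with a log2 difference of -0.23 (exact permutation p 0.1). APOA1, itself called lower, was the largest part of these sums, with means of 65189 in shCHROME and 84027 in EV. The sum without both genes was not tested.

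Ratios between 2 of the genes within a library do not depend on how libraries are scaled, and 6 were compared (exact permutation tests, with Benjamini-Hochberg adjustment over the 6). In the chromosome 11 cluster, the normalized count of APOA4 over that of APOA1 was 0.0122, 0.0139 and 0.0128 in shCHROME, against 0.0186, 0.0176 and 0.0162 in EV. The groups did not overlap, and the ratio was lower in every shCHROME library (log2 difference -0.43, exact permutation p 0.1, adjusted 0.15). APOC3 over APOA1 was 0.0373, 0.044 and 0.041 in shCHROME, against 0.029, 0.0356 and 0.0359 in EV. This ratio was higher in each shCHROME library (log2 difference 0.29, exact permutation p 0.1, adjusted 0.15) and was 0.18 without EV replicate a. APOA5 over APOA1 overlapped (log2 difference -0.06, exact permutation p 0.7, adjusted 0.7). So within 1 cluster the ratio of APOA4 to APOA1, and of APOC3 to APOA1, separated the groups in opposite directions, at the smallest p that the design allows and not below an adjusted 0.05.

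In the chromosome 19 cluster, APOC1 over APOE was 0.151, 0.13 and 0.147 in shCHROME, against 0.138, 0.131 and 0.138 in EV, which overlap (log2 difference 0.07, exact permutation p 0.4, adjusted 0.48). Across clusters, APOA1 over APOB, the main protein of high-density particles over that of low-density particles, was 0.15, 0.142 and 0.138 in shCHROME, against 0.184, 0.193 and 0.165 in EV. APOA1 over APOE was 2.14, 2.1 and 2.25 in shCHROME, against 2.52, 2.38 and 2.58 in EV. Neither ratio overlapped between the groups, with log2 differences of -0.33 and -0.21 (exact permutation p 0.1 and adjusted 0.15 for each).

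**Figure D3:**
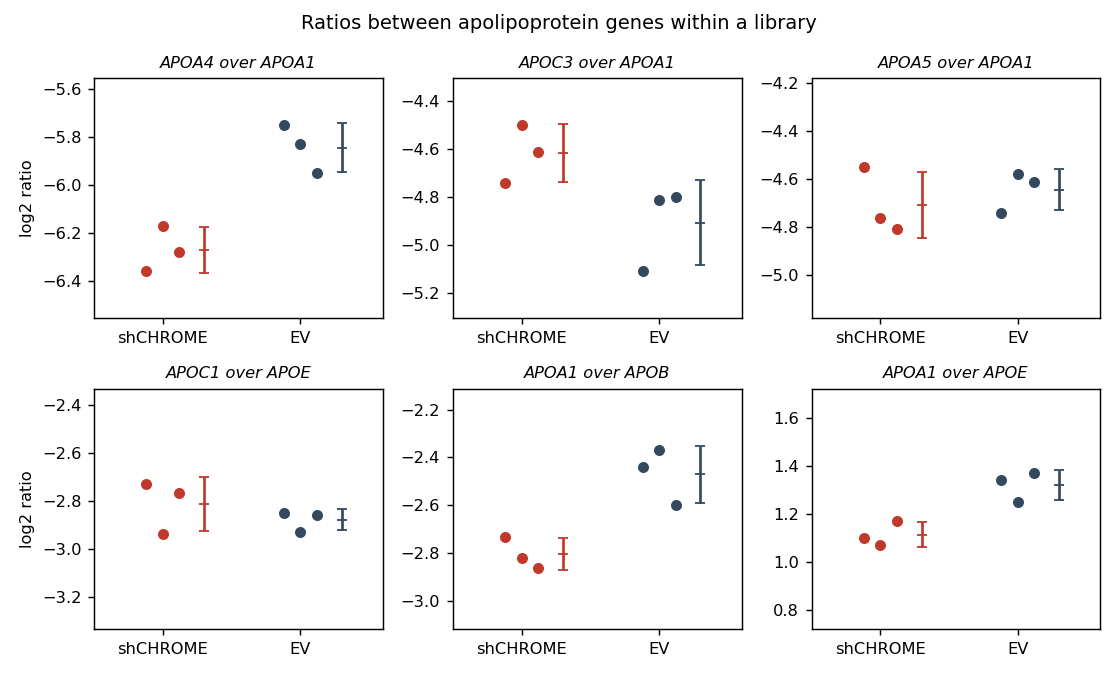
Log2 ratio of normalized counts of 2 apolipoprotein genes within a library (y axis, the same span of 1 log2 unit in each panel), with 1 point per library, shCHROME (red) left of EV (dark), and the mean with its SD beside them (n = 3 each). APOA4 over APOA1, APOA1 over APOB and APOA1 over APOE are lower in every shCHROME library, APOC3 over APOA1 is higher in every one, and the other two panels overlap.

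Between libraries of the same group, many of the 10 genes deviated in the same direction. In shCHROME replicate b, 1 of the 10 lay below its group mean, and in shCHROME replicate a 8 of 10 did. Likewise 1 of 10 lay below in EV replicate b and 8 of 10 in EV replicate a. In replicate c it was 6 of 10 in shCHROME and 5 of 10 in EV. Some deviations were small, such as -0.01 log2 for APOA1 in EV replicate a. The same count over all genes is not given here, and an offset of the whole library was not tested. The coefficient of variation ran from 1.91% for APOC1 to 16.4% for APOC3 in shCHROME, and from 1.14% for APOA1 to 20.6% for APOM in EV.

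Among 5977 genes with a mean of at least 1000 normalized counts, the patterns most like that of APOA1 over the 6 libraries were those of FADS1, a fatty acid desaturase (Pearson r 0.998), PDE4DIP, an anchoring protein of the centrosome and Golgi (0.997), and ALG3, a mannosyltransferase of N-glycan assembly (0.996). For APOE they were OAF (0.993), PQLC1 (0.980) and GDPD5, a glycerophosphodiesterase (0.972). The 6 points share libraries and groups, so these values describe the likeness and no more.

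Of 22 further genes named apolipoprotein or counted with them, 16 passed the filter, with a median log2 fold change of 0.03. Among those 16, 5 were called lower (31.2%, against 6.87% of all genes tested) and 3 higher (against 3.64%). Limma without an intensity trend ended the calls of 30 of 41 called genes outside the 10 that were followed through the alternatives; other settings that ended a call are given beside the gene. CLU, a chaperone of plasma also called apolipoprotein J, had a log2 fold change of -0.40, APOF, an inhibitor of lipid transfer, -0.69, APOL1, the trypanosome lytic factor, -0.53, and APOL3 -0.89. SAA4, a constitutive serum amyloid A of high-density particles, had 0.79, and APOO, a mitochondrial inner membrane protein, 0.42. The call of APOO was lost with the replicate block (limma adjusted p 0.0586), without shCHROME replicate a (0.0634), without shCHROME replicate c (0.0972), without EV replicate a (0.0855) or without EV replicate c (0.11). APOL and SAA genes have close paralogs that can share reads. APOC2 and APOC4, in the cluster of APOE and APOC1, were listed at 0, while the readthrough gene APOC4-APOC2 held 31 reads in shCHROME and 29 in EV.

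Over all genes tested, 6.87% were called lower and 3.64% higher. None of the 11 tested neighbours of the APOA1 cluster was called in either direction, and their median log2 fold change was -0.00. A count of none among so few genes does not set that list apart from all genes tested. Of 11 tested neighbours of the APOE cluster, RELB, a subunit of NF-kappa-B, was called higher (0.30) and none lower. That call was lost without shCHROME replicate a (limma adjusted p 0.0533), without shCHROME replicate b (0.0696), without EV replicate a (0.0934) or without EV replicate c (0.114). Beside APOA2, APOB, APOH and APOM, 26 neighbours were tested, and 7.69% of them were called lower. HS1BP3 near APOB (-0.51) and AXIN2 near APOH (-0.26) were lower and TOMM40L beside APOA2 (0.28) was higher. The neighbour lists do not hold each gene on either side: close to APOB, SDC1, which was counted with the receptors, was also called lower (-0.31), and GDF7, chosen after its value had been seen, higher (0.32, limma adjusted p 0.042). GDF7 lost its call in 8 of 18 alternatives, among them without each library in turn except shCHROME replicate a (adjusted p 0.058 to 0.139 over the 8). The call of AXIN2 was lost without shCHROME replicate c (limma adjusted p 0.0768) or without EV replicate a (0.114), and that of TOMM40L without EV replicate a (0.108).

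Of 25 genes for loading lipid onto APOB and moving particles through the early secretory pathway, 5 were called lower, none higher and 20 neither. The share called lower was 20%, against 6.87% of all genes tested. SAR1B, the GTPase of the coat that exports lipoproteins from the endoplasmic reticulum, had a log2 fold change of -0.35, the coat subunits SEC24D and SEC23A -0.32 and -0.30, MIA3, a cargo receptor for bulky secretory cargo, -0.29, and SURF4, a cargo receptor that binds APOB, -0.25. MTTP, the transfer protein that lipidates APOB, stood at 4549 ± 480 normalized counts in shCHROME and 4778 ± 400 in EV (SD, n = 3 each) and was not called (-0.07, limma adjusted p 0.611). P4HB, the other subunit of that complex, stood at -0.10 and was not called (limma adjusted p 0.243). MTTP was named after its value had been seen.

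Of 21 tested receptors and binding proteins, 2 were called lower (9.52%, against 6.87% of all genes tested) and 1 higher (against 3.64% of all genes tested). SDC1, a heparan sulfate proteoglycan that takes up remnants, had a log2 fold change of -0.31, ABCA1, the exporter that lipidates APOA1, -0.24, and VLDLR, a receptor that binds APOE, 0.60. Leaving out EV replicate c ended the call of ABCA1 (limma adjusted p 0.0591). That of VLDLR ended without shCHROME replicate b (0.085), without shCHROME replicate c (0.0538) or without EV replicate b (0.0803). LRP1, an endocytic receptor for remnants, was not called (-0.30, limma adjusted p 0.0807), but was called lower without shCHROME replicate b (-0.41, 0.0313) and without EV replicate b (-0.45, 0.00166).

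Of 15 tested genes that remodel lipoproteins in plasma, 6 were called lower (40%, against 6.87% of all genes tested) and 2 higher (against 3.64%). Hepatic lipase LIPC had a log2 fold change of -0.80, the paraoxonase PON1 of high-density particles -0.98, the lipase inhibitor ANGPTL4 -0.52, and LCAT, which APOA1 activates and which was named after its value had been seen, -0.49. LIPC averaged 477.9 ± 65.2 normalized counts in shCHROME and 828.5 ± 17.3 in EV (SD, n = 3 each). Endothelial lipase LIPG had 0.98 and the proprotein convertase FURIN 0.57. The call of PON1 ended without EV replicate b (limma adjusted p 0.0834) and that of LIPG without shCHROME replicate b (0.0502).

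Of 36 transcription factors known to act on apolipoprotein genes, 4 were called lower, 2 higher and 30 neither. The share called lower was 11.1%, against 6.87% of all genes tested, of which 3.64% were called higher. HNF4A, which activates APOA1, APOC3 and APOB, stood at 6825 ± 447 normalized counts in shCHROME and 6957 ± 333 in EV (SD, n = 3 each) and was not called (limma adjusted p 0.831). RXRA, the partner of many nuclear receptors, had a log2 fold change of -0.42, the orphan receptor ESRRA -0.32, the fatty acid receptor PPARA -0.30 and the coactivator PPARGC1A -0.23. ONECUT1 had 0.57, and NR5A2, at 14.53 ± 4.08 normalized counts in shCHROME and 3.067 ± 3.56 in EV (SD, n = 3 each), 2.36. The estimate for NR5A2 rests on 43 reads in shCHROME and 9 in EV, and was 1.58 without EV replicate b, 3.08 without EV replicate c and 3.60 with a pseudocount of 0.1. Calls were lost for PPARGC1A with library totals (limma adjusted p 0.075), without shCHROME replicate b (0.082), without EV replicate a (0.0756) or without EV replicate c (0.157). For ONECUT1 they were lost without shCHROME replicate b (0.0727), without shCHROME replicate c (0.136), without EV replicate a (0.0922) or without EV replicate b (0.0734). That of NR5A2 was lost without shCHROME replicate b (0.0615), without shCHROME replicate c (0.14) or without EV replicate b (0.0866).

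Of 18 plasma proteins that are no apolipoproteins, 11 were called lower, against 6.87% of all genes tested, none was called higher and 7 were not called. Their median log2 fold change was -0.23, beside -0.20 for the 10 apolipoprotein genes. AFP, the fetal counterpart of albumin, had -0.87, the thyroxine carrier TTR -0.72, ITIH3 -0.60, A2M -0.52, HP -0.38 and ALB -0.32. Among the 7 that were not called, estimates were positive for FGB (0.16), FGG (0.01) and RBP4 (0.15), and every shCHROME library of RBP4 lay above every EV library; these 3 were named after their values had been seen. The call of ALB ended with the replicate block (limma adjusted p 0.0572), with no filter beyond 1 read (0.141), without EV replicate a (0.0714) or without EV replicate c (0.0826), and that of HP without shCHROME replicate c (0.0564). The sum of these 18 genes ran from 1333180 to 1476845 normalized counts in shCHROME and from 1701409 to 1786979 in EV, without overlap. Of the 10 hepatocyte markers, 8 are also in this list, so the counts of both lists rest on many of the same genes.

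**Figure D4:**
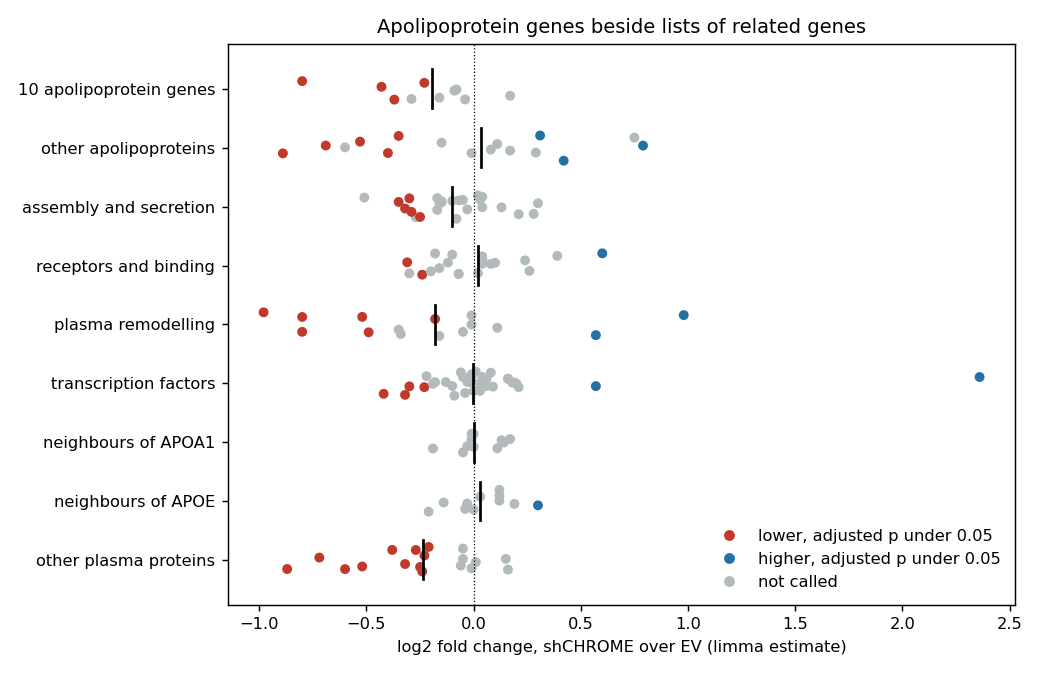
Log2 fold change, shCHROME over EV (x axis), of each tested gene in the 10 apolipoprotein genes and 8 lists of related genes (rows), with called genes in red (lower) or blue (higher), uncalled ones in grey and a black bar at the median of the row. The medians of the apolipoprotein genes and of the other plasma proteins lie at -0.20 and -0.23, and those of the genes beside APOA1 and beside APOE at -0.00 and 0.03.

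CHROME is described as binding miR-27b, miR-33a, miR-33b and miR-128, which act on cholesterol genes. Their mature sequences from RefSeq, on GRCh38.p14, are shown because a match to the seed (bases 2 to 8, in capitals) is what was searched for in the apolipoprotein messages.
hsa-miR-27b-3p: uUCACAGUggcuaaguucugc
hsa-miR-33a-5p: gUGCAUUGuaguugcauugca
hsa-miR-33b-5p: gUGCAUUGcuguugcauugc
hsa-miR-128-3p: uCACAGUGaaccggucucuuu

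The 2 miR-33 forms share a seed. The 3′ untranslated region of the longest coding transcript of each gene was searched (GENCODE 29), and those of other transcripts were not. None of the 10 apolipoprotein genes had a 7-base match there to any of the 4. Of 12083 genes tested, 17.3% had a match to miR-27b, 9.05% to either miR-33 and 21.2% to miR-128. The regions of the 10 genes were 57 bases (APOA1) to 755 bases (APOA5) long. All 10 were shorter than the median of 1291 bases, and a short region has less room for any match. No match says only that these letters are not in these regions.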

How the data were processed

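RNA from 3 shCHROME and 3 EV libraries was sequenced with an Illumina TruSeq RNA kit, per the labels' protocols. STAR 2.5, featureCounts 1.5.2, DESeq2 (given as 3.4) and the build hg19 are named in the submitters' processing notes; no source here names the annotation or the strand setting. The authors deposited 1 table with a normalized count per gene and library, a signal of reads divided by a size factor, along with their own comparison (log2 fold change, p-value, adjusted p). The mean given there was set aside: among 11274 genes averaging at least 100, it was off by over 1% from that of the 6 libraries in 7907. Dropping 1288 repeats from its 24656 rows left 23368 genes, 28 of them with symbols turned into dates, which were corrected.

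Values were whole multiples of 1 read, within 0.01 reads for 100% of genes. Reads were recovered from that step (0.995698 in EV replicate c, too close to 1 for an automatic test). Genes kept by filterByExpr (edgeR 4.0.16, R 4.3.3) entered a limma 3.58.1 fit of log2(value + 1) on group, with trend = TRUE; this scale understates changes of low genes. Alternatives were edgeR quasi-likelihood and DESeq2 1.42.0 on recovered reads, other scalings, filters and pseudocounts, the replicate letter as a block and fits without 1 library. Simulated data with known changes were used to test the limma script. Within groups, libraries were farther apart than counting noise (chi-square per degree of freedom 5.687 to 17.01).

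The apolipoprotein genes, the other lists, the tests and the naming rule were chosen with earlier results of these data known. Named were the 10 genes; of each other list up to 6 called genes with the largest changes and up to 2 abundant uncalled ones, not all of which are printed; and for APOA1 and APOE the 3 genes most correlated with each. Some genes of these lists are not reported here.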

Additional observations from a re-analysis of the deposited data

How the results depend on the processing

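The count of 4 apolipoprotein genes called lower was 4 under the scaling, filter, pseudocount, edgeR and DESeq2 alternatives and with the replicate block, 3 to 5 with 1 library left out, and 1 with limma without an intensity trend. None was called higher except 1, APOA2, with library totals and with library totals without the 10 genes, and 0 to 1 with 1 library left out. Over all genes, 600 to 1056 were lower and 245 to 540 higher with 1 library left out. Without an intensity trend they numbered 216 lower and 91 higher, and 936 and 921 were higher with library totals and with totals without the 10 genes. The cause was not tested. The replicate letters showed no clear pairing of libraries (correlation of deviations -0.047, -0.0915 and 0.0444 for a, b and c). Unlike letters gave -0.083 to 0.129. With 3 libraries per group, such values cannot exclude a culture or batch shared by a letter. With the replicate block 764 genes were lower and 349 higher. Among the genes named, the block ended the calls of APOO, ALB, VIL1 and GDF7 and no other. Signs turned for APOB (0.01 with either total; -0.10 to 0.06 with 1 library left out), APOC3 (-0.20 to 0.04 with 1 library left out), HNF4A (0.02 with either total; -0.08 to 0.01 with 1 library left out) and MTTP (-0.14 to 0.01 with 1 library left out), none of them called. Library totals moved the median of all genes to 0.06. Of 41 called genes outside the 10 that were followed, 11 kept the call in all 18 alternatives or as many as gave a value, 15 lost it only without an intensity trend and 15 in 2 or more.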
